A study of Mus musculus with 4 samples.

Results

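Car9-positive cells of the embryonic mouse presumptive knee were chosen by a measured value. They are the kept cells with 2000 or more unique molecular identifiers (UMIs, single counted RNA molecules) in total and 1 or more UMIs of Car9. They numbered 2941 of 40960 such cells in 4 single-cell libraries: 292 of 11323 in the E13.5 control, 397 of 8707 in the E14.5 control, 1268 of 10482 in an E14.5 library that carries the label Prx1cre;Glut1f/f;Glut3f/+ and 984 of 10448 in an E14.5 library with the label Prx1cre;Glut1f/f;Glut3f/f. The remaining 38019 cells of 2000 or more UMIs, all without a Car9 UMI, were the comparison, always within the same library. Cells were kept when they held 200 to 6000 genes and at most 10% of UMIs from the mitochondrial genome.

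Car9 encodes carbonic anhydrase IX, an enzyme of the cell surface that turns carbon dioxide and water into bicarbonate and protons outside the cell and so helps cells that make much acid to keep their inner pH. Its gene is a direct target of the hypoxia-inducible factors (HIF), transcription factors that are stable when oxygen is low and that also switch on glycolysis. The cartilage template of a limb has no blood vessels, and its chondrocytes live at low oxygen and rely on HIF and glycolysis, while the joint forms from a band of flattened cells, the interzone, marked by Gdf5.

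For each library, future knees were dissected from the hindlimb skeleton and taken apart into single cells by collagenase. Droplet 3' RNA sequencing counted UMIs per gene and cell, with 1 library per group and the number of embryos in each not stated. The E13.5 control and the E14.5 control carried no Cre. The other libraries, both E14.5, carried Prx1cre, which is active in limb bud mesenchyme and not in muscle, blood or endothelial cells, together with floxed alleles of Glut1 (Slc2a1) on both chromosomes and of Glut3 (Slc2a3) on 1 chromosome or on both. The libraries are taken below in the order E13.5 control, E14.5 control, labelled Glut3f/+ and labelled Glut3f/f, called library order. They held 100344565, 84188147, 97110697 and 91574038 UMIs over 12769, 9707, 11690 and 11602 barcodes, and the median kept cell of 2000 or more UMIs had 6589, 7597, 7133.5 and 6755.5 UMIs.

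RNA of Slc2a1 was not lower in the libraries labelled with the Glut1 deletion, which does not check those labels. Over all cells, Slc2a1 stood at 48.4, 64.6, 340.2 and 430 CPM (UMIs of a gene per 1000000 UMIs) in library order, so both libraries labelled with the Glut1 deletion were above both controls. In cells with markers of lineages outside the mesenchyme it stood at 35.4, 30.4, 108 and 224 CPM. Slc2a3 was at 5.15, 3.38, 4.31 and 2.63 CPM. The counted tags lie at the 3' end of the transcript, and which Glut1 exons are flanked by loxP sites is not stated, so tags outside the deleted part check nothing and the genotypes are given here as labels. Sex also differed between libraries: the share of cells with an Xist UMI was 70.1, 0.184, 96.8 and 95.9%, and the share with a UMI of a Y-linked gene was 19.9, 69.4, 0.0382 and 0.0287%. By these genes the E14.5 control was male and the libraries labelled with deletions female, and sex and genotype cannot be told apart. Pairs of libraries shared 25 to 40 barcodes, at most 0.381% of the smaller library, and 2 of the Car9-positive barcodes were shared, between the libraries labelled Glut3f/+ and Glut3f/f. The labels call the tissue interzone, but cells with a Gdf5 UMI were 2387 of 11323, 1291 of 8707, 1471 of 10482 and 860 of 10448, and chondrocyte and fibroblast markers were present in every library, so each library held a mixture.

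Car9-positive cells were more frequent at E14.5 than at E13.5 and most frequent in the libraries labelled with deletions. They made up 2.58% of cells in the E13.5 control (95% exact Clopper-Pearson interval 2.29 to 2.89), 4.56% in the E14.5 control (4.13 to 5.02), 12.1% in the library labelled Glut3f/+ (11.5 to 12.7) and 9.42% in the library labelled Glut3f/f (8.86 to 9.99). Relative to the E14.5 control the share was 2.65 times as high in the library labelled Glut3f/+ and 2.07 times as high in the library labelled Glut3f/f, and at E14.5 the control was 1.77 times the E13.5 control. Intervals in all that follows cover counting error only, since there was 1 library per group, and the members were chosen by Car9, so these levels are a description.

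A deeper cell is more likely to show a Car9 UMI, so each cell was also given its expected result at 2000 UMIs. The thinned shares were 0.875, 1.21, 3.81 and 2.94%, which put the libraries labelled Glut3f/+ and Glut3f/f at 3.16 and 2.44 times the E14.5 control. The order of the 4 libraries was the same in 8 of 8 settings of the share, counting the main and the thinned one. It was not the same among cells with 3 or more Car9 UMIs (below). Over the 8 settings the ratio to the E14.5 control ran from 2.46 to 7.26 in the library labelled Glut3f/+. In the library labelled Glut3f/f it ran from 1.9 to 4.43. Summed over all cells, Car9 stood at 4.18 CPM (3.77 to 4.62), 6.36 CPM (5.81 to 6.94), 28.1 CPM (27.1 to 29.2) and 18.8 CPM (17.9 to 19.8). The Car9 level of the library labelled Glut3f/+ was 4.43 times that of the E14.5 control (4.02 to 4.88), and that of the library labelled Glut3f/f was 2.97 times (2.68 to 3.28).

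**Figure D1:**
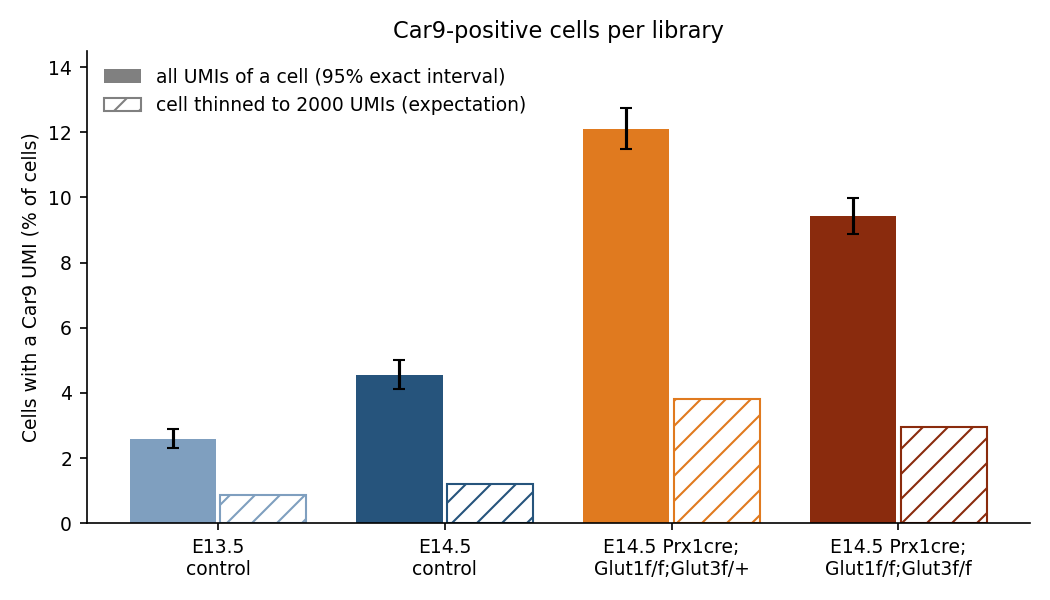
Share of cells of 2000 or more UMIs with a Car9 UMI in each library, with exact 95% intervals, beside the share expected at 2000 UMIs per cell. The library labelled Glut3f/+ is highest at 12.1% and the E13.5 control lowest at 2.58%.

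Among cells with several Car9 UMIs the libraries labelled with deletions stood further above the E14.5 control. A single UMI was the whole Car9 signal in 80.1, 81.9, 50.4 and 61.2% of Car9-positive cells in library order. Cells with 3 or more Car9 UMIs were 0.185, 0.138, 3.01 and 1.53% of all cells, or 21.9 and 11.1 times the E14.5 control in the libraries labelled Glut3f/+ and Glut3f/f, while the 2 controls exchanged places, with the E14.5 control at 0.743 times the E13.5 control. The most Car9 UMIs in a cell were 5, 10, 12 and 7. Around the depth threshold, cells with 1000 to 1999 UMIs held Car9 in 4 of 430, 4 of 288, 12 of 329 and 14 of 435 cases, and cells with 2000 to 2999 UMIs in 7 of 395, 6 of 263, 9 of 385 and 19 of 558. Shallow cells thus added few members on either side of it.

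Skeletal muscle cells gave the background, since muscle should lack Car9 and carries no Prx1cre recombination. Cells with 3 or more muscle markers held a Car9 UMI in 1.89, 1.26, 4.07 and 1.25% of cases at median depths of 10834, 13836, 13538.5 and 10642 UMIs. Their intervals were 1.04 to 3.16, 0.260 to 3.62, 2.24 to 6.73 and 0.0316 to 6.77%, from 14, 3, 14 and 1 muscle cells with Car9. Cells short of 3 markers of any other lineage held it in 2.62% (2.32 to 2.95), 4.64% (4.20 to 5.12), 12.4% (11.8 to 13.1) and 9.51% (8.95 to 10.1) at lower median depths of 6333, 7464.5, 6939.5 and 6705 UMIs. These intervals lay above those of muscle in the E14.5 libraries and overlapped at E13.5. There the raw shares did not tell these cells apart from the deeper muscle cells. With each cell thinned to the same depth, the E13.5 shares were 0.917% without another lineage and 0.370% in muscle. Car9 stood there at 4.42 and 2.36 CPM, from 353 and 21 Car9 UMIs. The thinned shares carry no interval. The part of free RNA in the cells with 1 Car9 UMI was not tested.

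Car9-positive cells were deeper than Car9-negative cells, with median totals of 7680, 9733, 11082.5 and 9979.5 UMIs against 6565, 7509.5, 6675 and 6489. Cells over 20000 UMIs, which may include doublets, were 5.14, 5.54, 13.1 and 12.8% of Car9-positive cells and 3.17, 4.69, 3.90 and 3.29% of Car9-negative cells. The mitochondrial share of UMIs ran the other way, with medians of 2.21, 1.78, 1.95 and 1.61% in Car9-positive cells and 2.85, 2.42, 2.94 and 2.39% in Car9-negative cells. The part of depth and of doublets in the differences below was not tested apart from the reweighting and the exclusions named there.

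Where the Car9-positive cells lay along cartilage differentiation changed between E13.5 and E14.5. Cells were ranked by the share of UMIs from 7 cartilage matrix genes, the chondrocyte markers below other than Sox9. They were divided at the quartiles of all cells, which were 0.0292, 0.314 and 1.10%. At E13.5 the quartiles from low to high matrix held Car9-positive cells at 1.17, 3.45, 3.31 and 3.01%. In the E14.5 control the shares were 1.18, 1.67, 4.86 and 7.44%, highest in the cells richest in matrix. In the library labelled Glut3f/+ they were 0.888, 5.08, 23.0 and 16.4%, and in the library labelled Glut3f/f 0.848, 4.97, 14.4 and 9.67%, highest in quartile 3 of both. Thinned to 2000 UMIs, that quartile held 7.71 and 4.55% against 4.62 and 2.49% in quartile 4. Quartile 2 held 52.1% of Car9-positive and 38.5% of Car9-negative cells at E13.5. Quartile 4 held 64.2 and 38.2% of them in the E14.5 control, and quartile 3 held 49.1 and 22.7% in the library labelled Glut3f/+ and 54.2 and 33.6% in the library labelled Glut3f/f.

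**Figure D2:**
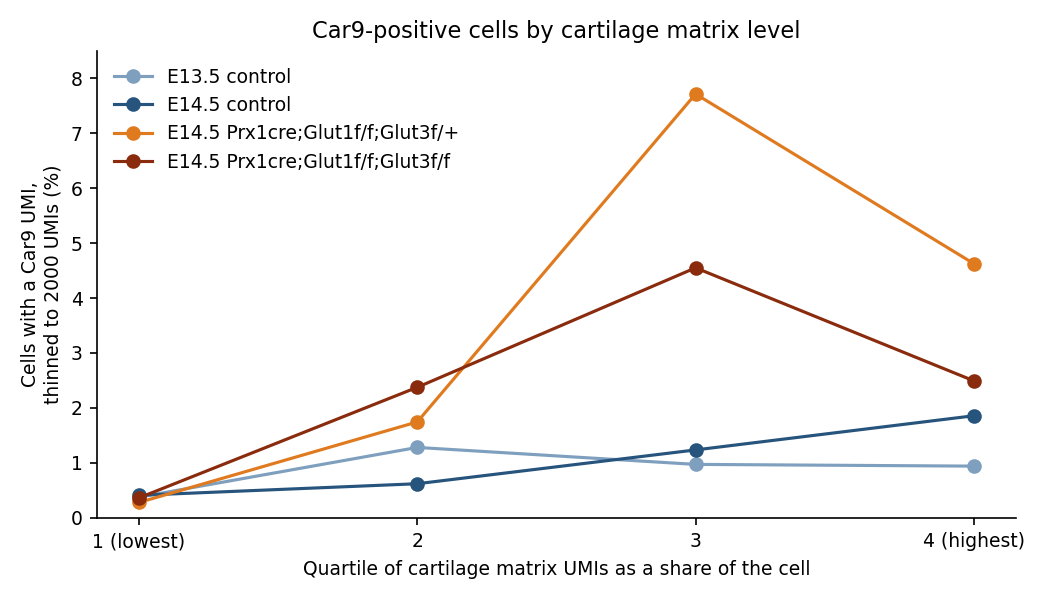
Share of cells with a Car9 UMI, thinned to 2000 UMIs per cell, by quartile of the cartilage matrix share of UMIs in each library. The E14.5 control rises to 1.86% in quartile 4, while the libraries labelled Glut3f/+ and Glut3f/f are highest, at 7.71 and 4.55%, in quartile 3.

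Gdf5, a secreted growth factor that marks the interzone, divided the cells differently at the 2 ages. At E13.5, 6.24% of cells with a Gdf5 UMI and 1.60% of cells without one were Car9-positive. At E14.5 the control had 3.8% with Gdf5 and 4.69% without, the library labelled Glut3f/+ 9.11 and 12.6%, and the library labelled Glut3f/f 5.12 and 9.80%. Car9 thus lay more often in Gdf5 cells at E13.5 and less often in them in both libraries labelled with deletions, while in the E14.5 control the interval with Gdf5 (2.82 to 4.99) overlapped that without (4.22 to 5.20). Thinned to 2000 UMIs the pairs were 2.23 and 0.514%, 1.12 and 1.22%, 2.75 and 3.98%, and 1.18 and 3.1%. At E13.5, where both sexes were present, 2.58% of 7555 cells with Xist alone and 2.83% of 1873 cells with Y-linked genes alone were Car9-positive, thinned 0.891 and 0.898%.

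Cells with markers of blood, macrophage, endothelial, muscle, neural or epidermal lineages made up 6.51, 2.52, 2.92 and 1.32% of Car9-positive and 8.11, 4.34, 5.59 and 2.37% of Car9-negative cells. The share with Car9 was above that of the whole library in some of these lineages and below it in others, so the pooled values do not hold for each. Neural or glial cells held Car9 in 1 of 47, 2 of 34, 17 of 69 and 7 of 43 cells. In the library labelled Glut3f/+ this was 24.6% (15.1 to 36.5), above its whole share of 12.1%. In the library labelled Glut3f/f it was 16.3% (6.81 to 30.7) against 9.42%. Thinned to the same depth, the neural or glial shares in these libraries were 5.47 and 2.86%, against 3.81 and 2.94% of all cells. Epidermal cells, at most 2 in a library, are not given. Macrophages held Car9 in 1 of 15, 2 of 35, 6 of 56 and 2 of 32 cells and endothelial cells in 2 of 60, 3 of 27, 3 of 73 and 2 of 71. Erythroid cells held it in 1 of 61, 0 of 35, 0 of 14 and 0 of 10 cells, where a count of 0, taken as under 3 cells of the total, allows shares of cells with a UMI of up to 8.57, 21.4 and 30%.

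Compared with Car9-negative cells of the same library, Car9-positive cells had HIF target genes called higher and fibroblast genes called lower in all 4 libraries, while glycolysis genes were called mainly outside the E14.5 control, where 2 of 14 passed. The 4 other genes named as markers, Mt1, Stc2, Pfkp and Nog, were called higher in Car9-positive cells of the libraries labelled with deletions, but this was not limited to these: at E13.5 the ratios of Stc2, Pfkp and Nog were above those of the library labelled Glut3f/f. They had been picked from these data, and each also belongs to a list below (metallothionein, ATF4, glycolysis and Bmp). Of genes with a mean of 20 CPM or more over both sides, those past 1.5-fold were 232 higher (3.78%) and 139 lower (2.27%) of 6130 in the E13.5 control, and 75 higher (1.28%) and 119 lower (2.03%) of 5854 in the E14.5 control. They were 137 higher (2.46%) and 353 lower (6.33%) of 5574 in the library labelled Glut3f/+, and 68 higher (1.28%) and 263 lower (4.95%) of 5309 in the library labelled Glut3f/f. Such genes are called higher or lower in what follows, and ratios are log2 values of Car9-positive over Car9-negative cells. The median of all these genes was 0.01, 0.01, -0.08 and -0.07.

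These counts moved with how the comparison was set. The called genes were 38.7% higher in the E14.5 control, but 60.0% (33 higher, 22 lower) when Car9-negative cells were reweighted to the depth and matrix share of the Car9-positive cells, and 53% (298 and 264) when 2 Car9 UMIs were required. With ratios taken relative to the median gene, the share went from 28.0 to 38.3% (176 higher, 283 lower) in the library labelled Glut3f/+ and from 20.5 to 31.0% (93 and 207) in the library labelled Glut3f/f.

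Mt1 encodes a metallothionein, a small protein that binds zinc and other metals. It stood at 9.57, 30.6, 279.9 and 212 CPM in Car9-positive cells and at 7.57, 18.9, 51.6 and 51.4 CPM in Car9-negative cells in library order. The log2 ratios were 0.36 (-0.29 to 0.90), 0.70 (0.43 to 0.95), 2.44 (2.38 to 2.50) and 2.04 (1.97 to 2.12). At E13.5 Mt1 was under 20 CPM on average and its interval crossed 0, so a difference in its summed level was not detectable there. The share of cells with an Mt1 UMI did differ at E13.5, at 5.82% (3.43 to 9.16) against 2.40% (2.12 to 2.71). In the E14.5 control the call ended when 2 Car9 UMIs were required (0.49) and when cells over 20000 UMIs were left out (0.58), while with reweighting the ratios were 0.87, 0.92, 2.0 and 1.74. Mt2, its neighbour in the same family, stood at 0.736, 2.11, 33.6 and 26.4 CPM against 1.66, 3.78, 7.85 and 6.38 CPM, and only in the library labelled Glut3f/+ did it pass the level of 20 CPM.

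Stc2 encodes stanniocalcin, a secreted glycoprotein induced by stress of the endoplasmic reticulum and by low oxygen. It stood at 6.99, 4.91, 36.6 and 34.9 CPM in Car9-positive and 1.84, 2.14, 7.42 and 14.7 CPM in Car9-negative cells. The log2 ratios were 1.96 (1.16 to 2.61), 1.23 (0.47 to 1.86), 2.30 (2.13 to 2.47) and 1.25 (1.08 to 1.41), with both controls under the 20 CPM level, and with reweighting 2.02, 1.47, 1.65 and 0.93. Stc2 was thus higher in both cell sets of the libraries labelled with deletions than in those of the controls. It was higher again in their Car9-positive cells, while their Car9-negative cells stayed under 20 CPM.

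Pfkp encodes a form of phosphofructokinase, which commits sugar to glycolysis. It stood at 19.5, 26.0, 51.9 and 50.8 CPM against 4.90, 9.92, 11.7 and 16.0 CPM, with log2 ratios of 2.01 (1.55 to 2.41), 1.39 (1.09 to 1.68), 2.15 (2.01 to 2.29) and 1.66 (1.52 to 1.81), and both controls were again under 20 CPM on average. With reweighting they were 1.78, 1.14, 1.56 and 1.29. The other forms of the enzyme differed: Pfkl rose in each library, with log2 ratios of 0.90, 0.59, 1.07 and 0.72, while Pfkm, the muscle form, had ratios of 0.09, -0.21, 0.05 and -0.18 below the level for a call.

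Nog encodes noggin, a secreted protein that binds Bmps and keeps them from their receptors. It stood at 155, 77.4, 176 and 105 CPM in Car9-positive and 67.3, 56.9, 52.7 and 50 CPM in Car9-negative cells. The log2 ratios were 1.20 (1.05 to 1.34), 0.45 (0.28 to 0.61), 1.74 (1.67 to 1.81) and 1.07 (0.98 to 1.17), so that the E14.5 control did not pass 1.5-fold. Reweighted to the depth and matrix share of the Car9-positive cells, the ratios became 1.13, 0.07, 1.15 and 0.88, which brought the E14.5 control near 0.

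The share of cells with a UMI of a marker was also higher among Car9-positive cells. Mt1 was seen in 5.82, 15.6, 56.5 and 48.3% of Car9-positive cells and in 2.40, 7.27, 12.2 and 13.2% of Car9-negative cells. Nog was seen in 53.1, 42.1, 66.0 and 52.8% against 21.2, 23.4, 18.8 and 21.4%. The Car9-positive cells were the deeper ones, as given above, and thinned to 2000 UMIs per cell the shares for Mt1 were 1.67, 4.52, 23.1 and 19.5% against 0.798, 2.38, 4.83 and 4.99%, and for Nog 25.8, 13.8, 26.0 and 18.5% against 9.18, 8.19, 6.91 and 7.78%. No cell type was set as lacking these genes, so the shares are not corrected for free RNA.

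The HIF target genes rose as a group. Of 36 genes on the list, those called higher were 14 of 22, 10 of 22, 15 of 24 and 15 of 23 with enough counts in library order, and none was called lower. The list's median log2 ratio was 0.70, 0.53, 1.05 and 0.79, and its summed level was 6019.6, 6482, 9246 and 8906 CPM in Car9-positive and 3413, 4353, 4225 and 4890.1 CPM in Car9-negative cells, with Mif the most abundant gene. The median was above 0 in 44 of 44 other ways of computing it, from 0.32 to 1.17, and with reweighting it was 0.68, 0.36, 0.75 and 0.72.

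Among the 10 genes with the most even and largest rises, Ndufa4l2 came first. This HIF target encodes a protein that lowers the use of oxygen by the respiratory chain, and it stood at 102, 302, 378 and 273 CPM against 11.3, 81.9, 69.6 and 60.6 CPM, with log2 ratios of 3.16, 1.88, 2.44 and 2.17. Bnip3, a receptor that marks mitochondria for removal by autophagy, stood at 182, 211, 302 and 259.7 CPM against 73.2, 115, 102 and 117 CPM, with ratios of 1.32, 0.88, 1.56 and 1.15. P4ha2, a subunit of the enzyme that hydroxylates prolines of collagen, stood at 198, 266, 459 and 452 CPM against 77.4, 151, 143 and 209 CPM (1.35, 0.82, 1.69 and 1.11). Each of these was high in the Car9-positive cells of every library and highest there in the library labelled Glut3f/+.

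Others of the 10 act in mitochondria or in the endoplasmic reticulum. Fam162a, a mitochondrial protein induced by HIF, stood at 628, 595, 965 and 898 CPM against 267, 349, 326 and 379.7 CPM (1.23, 0.77, 1.57 and 1.24). Higd1a, a small protein of the inner mitochondrial membrane, stood at 591, 1018, 1553 and 1594 CPM against 322, 609, 586 and 772 CPM (0.88, 0.74, 1.41 and 1.05). Ero1l, which oxidizes the enzyme that forms disulfide bonds in new proteins, stood at 54.4, 66.9, 161 and 145 CPM against 27.6, 41.2, 48.1 and 63.1 CPM (0.99, 0.70, 1.75 and 1.20). The ratio was smallest in the E14.5 control for each of the 3.

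The remaining genes of the 10 belong to carbon metabolism. Pgk1, a glycolytic enzyme that makes ATP, stood at 785, 800.3, 1162 and 1234 CPM against 407, 489, 476 and 606 CPM (0.95, 0.71, 1.29 and 1.03). Slc16a3, a transporter that exports lactate, stood at 102, 155, 246 and 254 CPM against 46.4, 91.3, 75.5 and 104 CPM (1.14, 0.77, 1.71 and 1.29). Pgm1, phosphoglucomutase, links glycogen to glycolysis and had ratios of 1.10, 0.79, 1.31 and 0.82. Me1, the cytosolic malic enzyme, makes NADPH and had ratios of 0.82, 0.71, 0.98 and 0.76. With reweighting all 10 genes kept their direction in all 4 libraries, with 10, 2, 9 and 8 of 10 past 1.5-fold. Ndufa4l2 and Bnip3 were the 2 in the E14.5 control, where Ero1l, Fam162a, Higd1a, Me1, P4ha2, Pgk1, Pgm1 and Slc16a3 ended between 0.43 and 0.55. Me1 also ended at 0.55 and 0.53 in the libraries labelled Glut3f/+ and Glut3f/f, and Pgm1 at 0.58 in the latter.

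**Figure D3:**
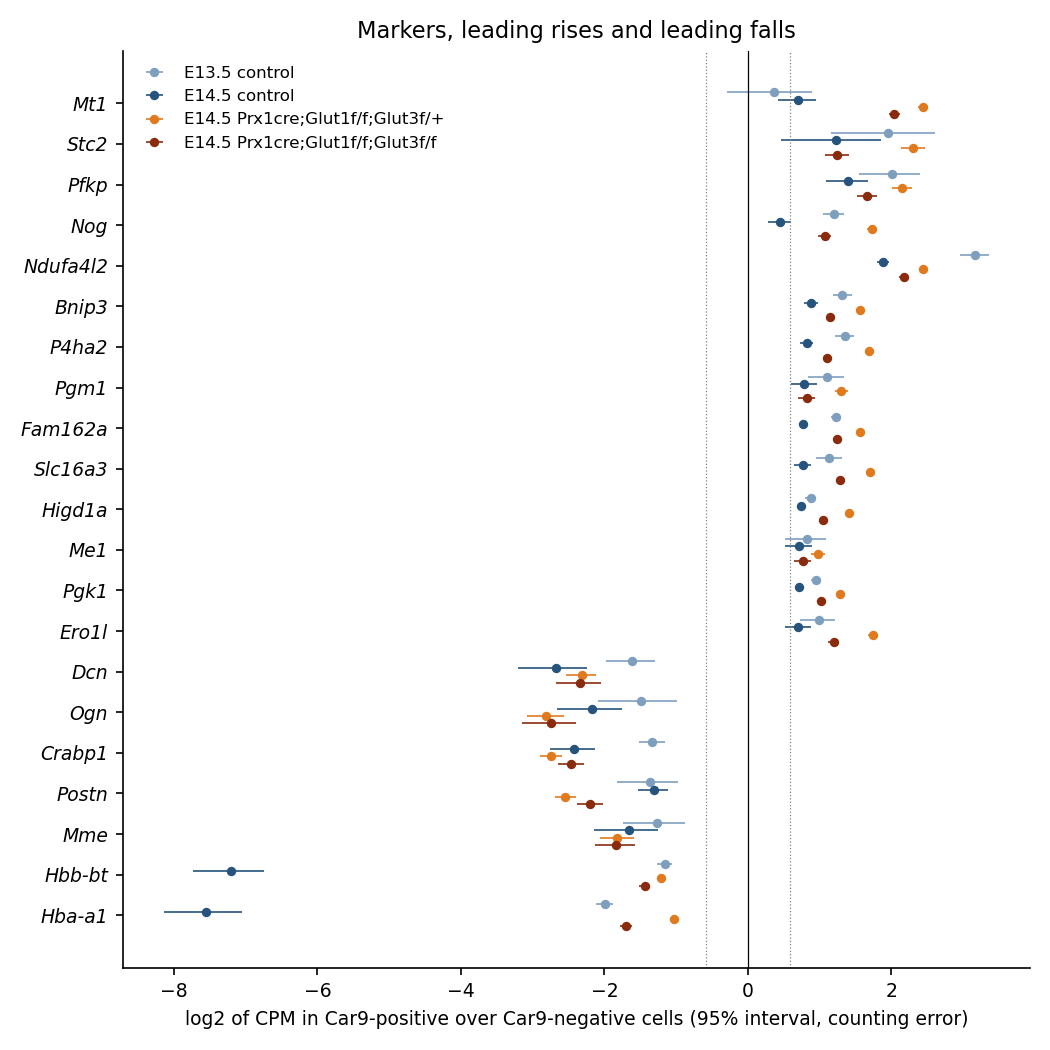
Log2 ratio of CPM in Car9-positive over Car9-negative cells for the named genes in each library, with exact 95% intervals. Ndufa4l2 is higher in all 4 libraries, at 3.16, 1.88, 2.44 and 2.17, and Dcn is lower in all 4.

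Further HIF targets moved with them. Vegfa, the signal that draws in blood vessels, stood at 72.8, 83.5, 148 and 143 CPM against 50.7, 64.9, 70.9 and 82.3 CPM, with log2 ratios of 0.53, 0.36, 1.06 and 0.79, and was called higher in the libraries labelled with deletions. Egln1, the prolyl hydroxylase that marks HIF for destruction and is itself induced by it, had ratios of 0.71, 0.54, 1.53 and 1.27, called outside the E14.5 control. Pdk1, a kinase that keeps pyruvate out of mitochondria, had ratios of 1.08, 0.67, 1.05 and 0.64, called in each library. Plod2, which hydroxylates lysines of collagen, had ratios of 1.14, 0.63, 1.04 and 0.73, and P4ha1 had ratios of 0.63, 0.61, 1.03 and 0.76.

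The genes listed for HIF proteins and their regulators, which leave out Egln1 as a target, gave no calls. Of 8 genes on this list 0 passed 1.5-fold in any library, with medians of 0.07, 0.13, -0.06 and -0.10 over 4, 4, 4 and 3 genes with enough counts. Hif1a, the oxygen-controlled subunit, stood at 164, 273, 155 and 127 CPM in Car9-positive and 141, 187, 169 and 146 CPM in Car9-negative cells, with log2 ratios of 0.22, 0.55, -0.13 and -0.20. HIF activity is set mainly by protein stability, which RNA counts do not show.

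Glycolysis genes were higher in Car9-positive cells, most broadly in the libraries labelled with deletions. Of 19 genes, those called higher were 7 of 14, 2 of 14, 13 of 15 and 11 of 15, with medians of 0.69, 0.48, 0.92 and 0.72 and none called lower. Their summed level was 10376, 9023, 12887 and 12910.1 CPM against 6424, 6709, 6558 and 7705 CPM, and Gapdh was the most abundant. With reweighting the medians were 0.62, 0.34, 0.68 and 0.57. Aldoa, an aldolase, had ratios of 0.96, 0.46, 1.21 and 0.97, and Ldha, which turns pyruvate into lactate, had ratios of 0.88, 0.46, 1.03 and 0.81. Ldhb, which favours the reverse reaction and is not a usual HIF target, had ratios of -0.03, -0.01, -0.01 and -0.23.

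Slc2a1, the glucose transporter named in the labels, had more RNA in Car9-positive cells of each library and was called higher in those labelled with deletions. It stood at 67.0, 94.0, 696 and 749 CPM against 47.8, 62.9, 265 and 379.7 CPM, with log2 ratios of 0.49, 0.58, 1.40 and 0.98. The E13.5 control and, by a narrow margin, the E14.5 control fell short of 1.5-fold. Slc2a3, the other targeted transporter, stood at 4.41, 3.28, 6.89 and 2.47 CPM against 5.17, 3.39, 3.77 and 2.65 CPM, too low for a call. Whether the counted Slc2a1 molecules came from recombined alleles was not tested.

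Genes that handle acid and lactate moved less than glycolysis as a list. Of 10 genes, those called higher were 1 of 6, 1 of 5, 2 of 6 and 1 of 6, with medians of 0.34, 0.26, 0.46 and 0.24, and Slc16a3 was called in each library. Bsg, the chaperone of lactate transporters, was the most abundant gene, and reweighting took the list's medians to 0.29, 0.02, 0.26 and 0.22. The other 15 carbonic anhydrases summed to 64.8, 45.6, 42.2 and 30.7 CPM in Car9-positive and 60.1, 46.0, 41.9 and 34.5 CPM in Car9-negative cells, log2 ratios of 0.11, -0.01, 0.01 and -0.17. Car14, another membrane-bound form, passed 20 CPM at E13.5 alone, with a ratio of 0.59. The difference in Car9 by which the cells were chosen thus had no counterpart in the sum of its family.

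Genes of the mitochondrial genome had negative median ratios in all 4 libraries, and some passed 1.5-fold in the libraries labelled with deletions. They summed to 24146, 18684, 19679.5 and 16475 CPM against 28290.1, 24316, 28885 and 23457 CPM, with list medians of -0.28, -0.35, -0.46 and -0.56, with mt-Atp6 the most abundant. Those called lower were 0 of 13, 0 of 13, 6 of 13 and 6 of 12, and mt-Nd6 was called higher at E13.5 (0.64). With reweighting the medians were -0.25, -0.29, -0.34 and -0.42. mt-Cytb, a core protein of complex III, had log2 ratios of -0.32, -0.53, -0.78 and -0.83. The 29 nuclear genes of the respiratory chain had medians of -0.14, -0.16, -0.14 and -0.06 with 0 called, close to the median of all genes in the libraries labelled with deletions. The mitochondrial share also marks damaged cells, and its part in the difference was not tested.

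The metal and ATF4 lists gave their most calls in the library labelled Glut3f/+. Of 8 genes for metallothioneins and zinc transport, those called higher were 0 of 3, 1 of 4, 3 of 5 and 1 of 4, with medians of -0.18, 0.33, 0.65 and 0.25. With reweighting these medians were -0.21, 0.17, 0.19 and 0.15. Slc39a14, a zinc importer, had ratios of 0.36, 0.56, 0.65 and 0.46. Of 35 targets of ATF4, the factor that answers amino acid shortage and stress, those called higher were 2 of 18, 0 of 20, 13 of 28 and 1 of 31, with medians of 0.04, 0.04, 0.55 and 0.22 and Slc38a2 the most abundant. The single call in the other direction was in the library labelled Glut3f/+.

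Within the ATF4 list the call depended on the library. Asns, asparagine synthetase, stood at 28.0, 30.2, 151 and 226 CPM in Car9-positive and 37.6, 40.3, 84.5 and 188 CPM in Car9-negative cells, with log2 ratios of -0.42, -0.41, 0.84 and 0.26. Atf5, a related factor, had ratios of -0.02, 0.03, 1.10 and 0.20, and Eif4ebp1, an inhibitor of translation, had 0.05, -0.19, 1.04 and 0.33. Of the 4 libraries, the library labelled Glut3f/+ was the one in which these genes were called higher. With reweighting the list's medians were 0.01, -0.07, 0.27 and 0.02, so that of the library labelled Glut3f/+ moved by more than 1.5 times toward 0.

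The neighbouring stress lists gave few calls. The 12 genes of the unfolded protein response had medians of 0.05, -0.04, -0.07 and -0.36, with 1 call, lower, in the library labelled Glut3f/f. With reweighting these medians were 0.01, -0.13, -0.26 and -0.54, further below 0 in the libraries labelled with deletions. The 12 genes of the p53 response and cell death had medians of -0.18, -0.36, 0.25 and 0.18 over 4, 4, 5 and 5 genes with enough counts, with Ccng1, a cyclin induced by p53, higher in the library labelled Glut3f/+ (1.04) and Cdkn1a, an inhibitor of the cell cycle, lower at E13.5 (-0.78).

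Of the signalling lists, Bmp genes had few calls and Tgfb genes had some lower. Of 18 Bmp genes, those called higher were 2 of 10, 0 of 9, 1 of 9 and 1 of 9, Nog among them outside the E14.5 control, and the medians were 0.15, 0.07, 0.16 and 0.08. Of 15 Tgfb genes, those called lower were 0 of 9, 1 of 11, 3 of 10 and 3 of 7, with medians of 0.16, -0.06, -0.29 and -0.24. With reweighting the Tgfb medians were 0.07, 0.08, -0.15 and -0.10, nearer 0 in the libraries labelled with deletions and of changed sign in the E14.5 control. Of all genes with enough counts 2.27, 2.03, 6.33 and 4.95% were called lower, below the Tgfb share in each E14.5 library. Ltbp3, which holds the latent ligand in the matrix, was higher at E13.5 and lower in both libraries labelled with deletions, with ratios of 0.68, -0.06, -0.71 and -0.82. Ltbp1, of the same family, had ratios of 0.18, -0.53, -1.37 and -1.28, and Bmp5, a ligand, -0.35, -0.14, -0.62 and -0.89, with falls of both in the libraries labelled with deletions. Tgfbr2, the receptor that binds the ligand, stood at 19.1, 20.4, 11.4 and 7.14 CPM against 20.0, 24.4, 21 and 15.6 CPM, under 20 CPM on average outside the E14.5 control.

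Immediate-early genes, which respond within minutes to stimuli and to tissue digestion, rose at E13.5. Those called higher were 7 of 15, 1 of 15, 0 of 15 and 0 of 15, with medians of 0.56, -0.03, -0.36 and -0.02. Jun, a transcription factor, had ratios of 1.04, -0.01, -0.64 and -0.23, and Dusp1, a phosphatase of kinases, 1.32, 0.00, -0.41 and -0.36. Called lower were 1 of 15 at E13.5 (Zfp36) and 2 of 15 in the library labelled Glut3f/+ (Jun and Atf3). The part of the digestion in these values was not tested.

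Cell cycle genes gave few calls. The medians of 20 S phase genes were 0.02, 0.13, -0.15 and -0.01, and those of 20 genes of the G2 and M phases were 0.39, 0.14, -0.25 and -0.11. Called lower were 0 of 18, 0 of 18, 2 of 18 and 0 of 17 for S phase and 0 of 20, 0 of 20, 2 of 19 and 1 of 18 for G2 and M, Ccnb2 in both libraries labelled with deletions, and 0 genes were called higher. After reweighting the medians of the G2 and M list were 0.25, -0.05, -0.52 and -0.30, so the sign was not kept in the E14.5 control and the values of the libraries labelled with deletions moved further below 0.

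Few chondrocyte markers passed 1.5-fold in summed level, and those called higher were 2 of 8, 0 of 8, 1 of 8 and 0 of 8. With each cell thinned to the same depth, shares of cells with a marker UMI also differed. Acan was seen in 27.5, 73.9, 75.1 and 73.0% of Car9-positive and 15.6, 48.6, 42.3 and 50.9% of Car9-negative cells. For Col2a1 the shares were 75.9, 93.5, 97.5 and 97.8% against 53.2, 74.3, 67.1 and 81.0%. Sox9 in the library labelled Glut3f/f was close, at 40.6 against 39.3%. The 8 markers summed to 3774, 12742, 10724 and 10249.7 CPM in Car9-positive and 3048, 9402, 8129 and 9333 CPM in Car9-negative cells, with Col2a1 the most abundant and medians of 0.26, 0.43, 0.34 and 0.05. Acan, the large proteoglycan of cartilage, stood at 223, 911, 982 and 957 CPM against 141, 616, 595 and 693 CPM (0.66, 0.57, 0.72 and 0.47), and Sox9, the factor that starts cartilage, had ratios of 0.66, 0.38, 0.35 and 0.03. The 6 prehypertrophic or hypertrophic markers, with Pth1r the most abundant, summed to 115, 50.3, 123 and 134 CPM against 180.3, 92.3, 173 and 134 CPM, log2 ratios of -0.64, -0.87, -0.49 and 0.00. With reweighting the chondrocyte medians became 0.05, -0.03, -0.17 and -0.05, with a changed sign in the E14.5 libraries. The matrix share used for reweighting is the share of these same markers without Sox9. Matching on it brings their medians toward 0 by construction, so the reweighted values cannot show whether the markers differ.

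Interzone markers were called higher in Car9-positive cells at E13.5 and were not at E14.5. The 5 markers summed to 2053, 528, 383 and 201 CPM against 1006, 755, 695 and 407 CPM, with medians of 1.32, -0.41, -0.95 and -0.79 and Sfrp2 the most abundant. All 5 were called higher at E13.5, and those called lower were 0 of 5, 1 of 5, 3 of 5 and 2 of 4. Gdf5 stood at 228, 26.9, 18.1 and 4.34 CPM in Car9-positive and 75.1, 35.8, 35.0 and 15.5 CPM in Car9-negative cells, with log2 ratios of 1.61, -0.41, -0.95 and -1.83. In the E14.5 control the median turned to 0.40 after reweighting, while the other libraries gave 1.15, -0.47 and -0.46, so the direction there depends on the matrix share and depth of the cells compared.

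Fibroblast markers had negative median ratios in all 4 libraries, though with reweighting that of the E14.5 control fell short of 1.5-fold. The 6 fibroblast markers summed to 839, 1482, 899 and 704 CPM against 1514, 2375, 2556 and 2009 CPM, with medians of -0.86, -0.78, -1.83 and -1.83 and Col3a1 the most abundant, and those called lower were 6 of 6, 4 of 6, 5 of 6 and 5 of 6. Dcn, decorin, a small proteoglycan that coats collagen fibrils, stood at 26.9, 8.89, 12.5 and 7.65 CPM against 82.8, 57.7, 62.3 and 39.0 CPM (-1.62, -2.68, -2.32 and -2.34). Ogn, osteoglycin, had ratios of -1.48, -2.17, -2.81 and -2.75, and Postn, periostin, -1.37, -1.31, -2.54 and -2.19. Reweighting took the list's medians to -0.77, -0.34, -1.11 and -1.13.

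A retinoic acid binding protein and a surface peptidase fell as well. Crabp1, which binds retinoic acid, stood at 96.8, 20.4, 21.2 and 21.5 CPM against 244, 110.1, 142 and 119 CPM (-1.33, -2.43, -2.74 and -2.46). Mme, neprilysin, had ratios of -1.27, -1.66, -1.82 and -1.83. Reweighting kept the direction of these and of Dcn, Ogn and Postn in all 4 libraries, but most of the falls shrank. Dcn ended at -0.85, -1.20, -0.92 and -0.87, Ogn at -1.04, -0.98, -1.63 and -1.87, Postn at -0.96, -0.43, -1.62 and -1.43, Crabp1 at -1.27, -1.41, -1.54 and -1.66, and Mme at -1.34, -1.39, -1.64 and -1.63.

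Haemoglobins were lower but unstable. Hbb-bt, an adult beta chain, stood at 249, 8.42, 172 and 121 CPM in Car9-positive and 556, 1254, 398 and 328 CPM in Car9-negative cells (-1.16, -7.20, -1.21 and -1.44), and Hba-a1, an alpha chain, at 225, 7.02, 276 and 121 CPM against 898, 1335, 561 and 394 CPM (-2.00, -7.55, -1.03 and -1.70). With cells of 1000 to 6000 genes and at most 5% mitochondrial UMIs, Hbb-bt turned to 1.65, 0.40 and 0.41 and Hba-a1 to 0.52, 0.60 and 0.31 in the libraries other than the E14.5 control, and with reweighting Hba-a1 turned to 0.26 in the library labelled Glut3f/+. Reweighting also ended the calls of Hba-a1 in the library labelled Glut3f/f (-0.12) and of Hbb-bt outside the E14.5 control (-0.19, -0.03 and -0.18). Without cells of other lineages Hbb-bt was at -5.02, -6.26, -0.53 and -0.90 and Hba-a1 at -5.86, -6.76, -0.58 and -1.31, so at E13.5 the ratios moved further from 0 and in the library labelled Glut3f/+ both calls ended. The 8 other erythroid markers summed to 7.73, 0.702, 2.98 and 1.79 CPM against 16.3, 13.3, 5.56 and 5.77 CPM, Alas2 the most abundant, with 3, 7, 5 and 6 of 8 at 0 in Car9-positive cells. The part of free haemoglobin RNA or red cells in these values was not tested.

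Markers of several other cell types were also summed. Muscle markers (10), mostly Actc1 and in the library labelled Glut3f/f Tnnt1, summed to 257, 19.2, 55.7 and 4.93 CPM in Car9-positive and 597, 190.4, 231 and 44.2 CPM in Car9-negative cells, lower in each library, with Pax7 at 0 in the E14.5 control and Pax7, Actc1, Mymk and Chrna1 at 0 in the library labelled Glut3f/f. Muscle and osteogenic markers were less abundant in the Car9-positive cells of each library. Tendon markers were so in the E14.5 libraries, mainly in those labelled with deletions. Tendon markers (6), mostly Scx and in the E14.5 control Fmod, summed to 126, 96.6, 30.3 and 16.4 CPM against 111, 116, 117 and 75.6 CPM, and osteogenic markers (6), mostly Runx2, to 57.8, 12.2, 38.9 and 32.6 CPM against 141, 47.4, 67.9 and 59.4 CPM. Endothelial markers (8), mostly Egfl7, summed to 60.3, 47.5, 23.2 and 30.1 CPM against 54.7, 37.3, 69.4 and 70.7 CPM. Macrophage markers (8), mostly Tyrobp and in the E14.5 control C1qb, summed to 59.6, 117, 23.2 and 21.7 CPM against 15.8, 47.1, 61.9 and 37.6 CPM, higher in the controls and lower in the libraries labelled with deletions, with 0 of 8 at 0. No macrophage marker reached 20 CPM on average, so none was called. Epidermal markers (7), mostly Krt17 and in the library labelled Glut3f/f Epcam, with Krt5, Krt14 and Cdh1 at 0 in each library, summed to 53, 33.9, 10.9 and 5.95 CPM against 21.4, 25, 15.5 and 8.70 CPM, and Krt17 was called higher in both controls. Mural markers (5), mostly Notch3 and in the E14.5 control Rgs5, with Higd1b at 0 in each library, summed to 20.6, 12.2, 11.3 and 7.48 CPM against 22.4, 24.9, 29.2 and 13.3 CPM. The part of these cell types in the differences above was not tested.

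Cells with more Car9 UMIs had more HIF target RNA. Relative to cells with 0 Car9 UMIs, the HIF list's median log2 ratio in cells with 1, 2, 3 to 4 and 5 or more Car9 UMIs was 0.87, 1.12, 1.21 and 1.23 in the library labelled Glut3f/+ and 0.70, 0.85, 0.89 and 1.01 in the library labelled Glut3f/f. In the E14.5 control it was 0.47, 0.71, 0.82 and 0.96, where the upper classes held 7 and 5 cells, and at E13.5 it was 0.65, 0.75 and 1.03 up to 3 to 4 UMIs, with 1 cell above (2.17). The median thus climbed with Car9 in each library, and without the classes under 20 cells it climbed from 0.47 to 0.71 in the E14.5 control and from 0.65 to 1.03 at E13.5. Median depth climbed as well, in the library labelled Glut3f/+ from 6675 UMIs in cells without Car9 to 10111, 10701, 12674 and 16462, and its part was not tested.

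Of the other lists some ran in order with Car9 and some did not. Glycolysis in the library labelled Glut3f/+ gave 0.86, 0.93, 1.01 and 1.11 over the same classes, ATF4 targets 0.38, 0.69, 0.67 and 0.97, and fibroblast markers -1.47, -2.34, -1.85 and -2.49. In the library labelled Glut3f/f the ATF4 list gave 0.15, 0.25, 0.31 and 0.39, and fibroblast markers -1.49, -2.17, -1.90 and -1.77. The mitochondrial share fell over the classes of the library labelled Glut3f/+, with medians of 2.19, 1.79, 1.67 and 1.4%.

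**Figure D4:**
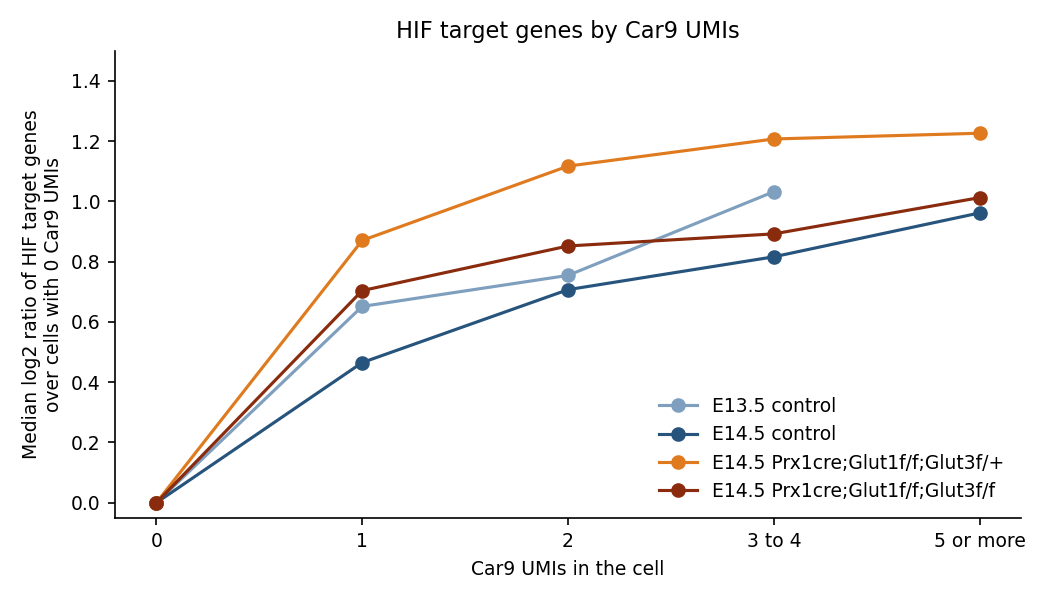
Median log2 ratio of HIF target genes against cells of the same library without Car9, by the number of Car9 UMIs in the cell, with classes under 5 cells not drawn. The library labelled Glut3f/+ goes from 0.87 at 1 UMI to 1.23 at 5 or more.

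Some genes were called in every library, from UMIs summed over cells, so a single Car9-positive cell need not show them. Of 5034 genes with enough counts in all 4 libraries, 18 were higher by 1.5-fold or more in each: Bnip3, Bnip3l, Ero1l, Fam162a, Higd1a, Me1, Ndufa4l2, P4ha1, P4ha2, Pdk1, Pfkl, Pgk1, Pgm1, Plod2, Slc16a3, Tmem45a, Trim47 and Xylt1. They include enzymes of glycolysis and of collagen hydroxylation, and the mitochondrial receptors Bnip3 and Bnip3l. The 29 lower in each included the collagen genes Col1a1, Col1a2 and Col5a2, the mesenchymal factors Prrx1, Twist1 and Ebf1, the chemokine Cxcl12, and haemoglobins. Both libraries labelled with deletions shared 43 higher and 185 lower genes, and both controls shared 33 higher and 33 lower.

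Car9-positive cells of the libraries labelled with deletions were then compared with Car9-positive cells of the E14.5 control. These sets were composed differently and were not reweighted: quartile 4 of the matrix share held 64.2% of the Car9-positive cells of the E14.5 control and 40.5 and 35.5% of those in the libraries labelled Glut3f/+ and Glut3f/f, and a single Car9 UMI made up the signal in more of the control's cells (81.9% against 50.4 and 61.2%). The part of this in the ratios was not tested. Mt1, Stc2, Pfkp, HIF targets and ATF4 targets were higher in both, though Stc2 was just short of 20 CPM on average in the library labelled Glut3f/f. Interzone and fibroblast markers were lower. Both comparisons share the E14.5 control, so they are not independent, and sex and genotype cannot be told apart in either. Of 5612 genes with enough counts, 127 (2.26%) were higher and 494 (8.80%) lower in the library labelled Glut3f/+, and of 5528 genes 139 (2.51%) were higher and 827 (15.0%) lower in the library labelled Glut3f/f. The median of all genes was -0.17 and -0.20, so the log2 ratios that follow are relative to that median unless stated. On this scale the calls were 218 higher and 223 lower of 5612 genes in the library labelled Glut3f/+. In the library labelled Glut3f/f they were 308 higher and 402 lower of 5528 genes. The share of calls that were higher went from 20.5 to 49.4% and from 14.4 to 43.4%.

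The markers differed in size. Relative to the median gene, the log2 ratios in the libraries labelled Glut3f/+ and Glut3f/f were 3.35 and 2.99 for Mt1, 3.03 and 3.0 for Stc2, 1.16 and 1.16 for Pfkp, and 1.35 and 0.64 for Nog. Stc2 fell just short of 20 CPM on average in the library labelled Glut3f/f. Car9-negative cells, with medians of all genes of -0.07 and -0.11, had unadjusted ratios of 1.45 and 1.44 for Mt1, 1.79 and 2.78 for Stc2, 0.24 and 0.69 for Pfkp, and -0.11 and -0.19 for Nog. Without the shift Nog gave 1.18 and 0.44 in Car9-positive cells. In the library labelled Glut3f/f it thus passed 1.5-fold only relative to the median gene. Mt1 and Stc2 passed 1.5-fold in both cell sets, but Stc2 was under 20 CPM in Car9-negative cells and was not called there. Slc2a1 gave 3.05 and 3.19 in Car9-positive cells.

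HIF targets were higher, with a relative median of 0.70 and 0.61, where 15 of 24 and 12 of 23 genes were called higher and 1 and 2 lower. Without the shift the HIF medians were 0.53 and 0.41, with 11 of 24 and 11 of 23 higher. Glycolysis gave 0.55 and 0.57, with 8 of 16 and 7 of 15 higher, without the shift 0.38 and 0.37 with 5 and 4 higher, and pH and lactate genes 0.44 and 0.51. In Car9-negative cells the unadjusted medians were -0.08 and 0.08 for HIF targets and -0.09 and 0.14 for glycolysis. Among single genes Egln1 had relative ratios of 1.32 and 1.36, Slc16a3 0.83 and 0.91, and Ndufa4l2, the first of the 10 rises above, 0.49 and 0.06. Hif1a was lower, at -0.65 and -0.90.

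Stress genes made a wider difference. The relative median of ATF4 targets was 1.03 and 1.29, with 17 of 26 and 20 of 27 higher (0.86 and 1.09, with 15 and 19 higher, without the shift), and in Car9-negative cells the unadjusted median was 0.20 and 0.78. The unfolded protein response gave 0.41 and 0.97, with 3 and 9 of 12 higher (1 and 7 without the shift), while Car9-negative cells had unadjusted medians of 0.22 and 0.92 with 2 and 11 of 12 higher, so this difference was not particular to the Car9-positive cells. The p53 targets gave 0.83 and 0.78, with 4 of 5 and 3 of 4 higher. Asns had relative ratios of 2.49 and 3.1, and Trib3, a pseudokinase induced by ATF4, 1.89 and 2.17. Nupr1, a stress-induced chromatin protein, stood at 13.3 CPM in the control's Car9-positive cells and at 90.5 and 150.1 CPM in the libraries labelled Glut3f/+ and Glut3f/f, with relative ratios of 2.92 and 3.68. Mt2, at 4.09 and 3.77, rested on 2.11 CPM in the control and was under 20 CPM on average. The remaining metallothionein and zinc genes stayed near the median, with list medians of 0.09 and 0.12 that were -0.08 in both before the shift.

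Growth and patterning genes were lower or near the median. Genes of the G2 and M phases gave relative medians of -0.46 and -0.42, with 5 and 7 of 20 lower, which without the shift were medians of -0.63 and -0.62 with 15 and 10 of 20 lower, and S phase genes -0.19 and -0.20. Tgfb genes gave -0.27 and -0.55, with 3 and 4 of 8 lower, HIF factors -0.24 and -0.29, and Bmp genes 0.10 and -0.25. In Car9-negative cells the unadjusted medians were also below 0 for G2 and M genes (-0.23 and -0.39) and Tgfb genes (-0.13 and -0.31). The mitochondrial genome gave 0.20 and -0.44, nuclear respiratory chain genes 0.18 and 0.30, and immediate-early genes -0.15 and 0.07. The values of Bmp genes in the library labelled Glut3f/+ and of immediate-early genes in the library labelled Glut3f/f changed sign with the shift.

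Among cell type markers, interzone genes had relative medians of -0.41 and -1.12, fibroblast genes -0.58 and -0.90, and chondrocyte genes -0.11 and -0.10. The interzone sum in Car9-positive cells was 528 CPM in the E14.5 control, 383 CPM in the library labelled Glut3f/+ and 201 CPM in the library labelled Glut3f/f. In Car9-negative cells the unadjusted interzone medians were -0.10 and -0.96. The prehypertrophic or hypertrophic sum was higher, at 123 and 134 CPM against 50.3 CPM, and the macrophage sum lower, at 23.2 and 21.7 CPM against 117 CPM. In Car9-negative cells the prehypertrophic or hypertrophic sum was also higher, at 173 and 134 CPM against 92.3 CPM. The macrophage sum in Car9-negative cells was 61.9 and 37.6 CPM against 47.1 CPM. Muscle markers in Car9-positive cells were at 55.7 and 4.93 CPM against 19.2 CPM, and their part in the comparison was not tested.

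Single genes were ranked with the sex-linked ones left out, since these had the largest ratios and differ with the sex of the embryos: Xist gave relative ratios of 11.65 and 11.40 and the Y-linked Ddx3y -11.32 and -10.83. The 5 largest falls of the rest in the library labelled Glut3f/f were in Serpina3n, Ucma, Tm4sf1, Fmod and Htra1. Ucma, a small protein secreted by young cartilage, stood at 39.8 CPM in the control and at 6.27 and 4.59 CPM in the libraries labelled Glut3f/+ and Glut3f/f, with relative ratios of -2.49 and -2.90. Serpina3n, an inhibitor of proteases, went from 38.4 to 4.84 and 3.74 CPM (-2.81 and -3.14), and Tm4sf1, a membrane protein, from 63.9 to 15.8 and 7.65 CPM (-1.85 and -2.85). Fmod, fibromodulin, which binds collagen, went from 48.0 to 13.7 and 6.38 CPM (-1.64 and -2.70). Htra1, a secreted protease, had relative ratios of -0.87 and -2.01. The largest rises on the same terms were those of haemoglobins and Nupr1: Hbb-bs stood at 29.5 CPM in the control and at 735 and 576 CPM in the others, while in Car9-negative cells it was lower there, at 1448 and 1170 CPM against 4019 CPM. For Hbb-bs, Hbb-bt, Hba-a1 and Hba-a2 the relative ratios in Car9-positive cells ran from 4.03 to 5.44. The part of free haemoglobin RNA was not tested.

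Promoters were read from RefSeq (build GRCm38.p6), 250 bases before each start, for the core of the hypoxia response element and of the metal response element. The hypoxia core was ACGTG or GCGTG and the metal core TGCACNC or TGCGCNC, on either strand. The hypoxia core occurred in 12679 of 32851 promoters (38.6%) and in 3090 of 5136 promoters (60.2%) of genes with enough counts in all libraries. The metal core occurred in 7032 (21.4%) and 1630 (31.7%). Of the markers, 4 of 5 were in the set, all but Nog, and 4 of 4 held the hypoxia core, while of the 10 rises 8 were in the set and 8 of 8 held it. Of the HIF list 25 of 29 held it. The metal core was in Mt1 among the markers, in P4ha2 among the rises and in 15 of 29 genes of the HIF list. These are counts of genes with a match in any promoter. They are thus unlike the shares of single promoters above, and Me1 is counted although a promoter of it had no match. A match is a description of the letters and not evidence of binding.

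A stretch with matches is shown for Car9, Mt1, Stc2, Pfkp and Bnip3, with the cores in capitals and read on the strand of the gene. Car9 lies on the plus strand (chr4:43506996-43507025), as does Mt1 (chr8:94178969-94179081), where the metal core TGCACAC follows 1 of the 2 matches of the hypoxia core, the other lying before the stretch. Stc2 (chr11:31370252-31370311), Pfkp (chr13:6648778-6648911) and Bnip3 (chr7:138909520-138909631) lie on the minus strand. On the genome the genes span chr4:43506966-43513729 for Car9 (ENSMUSG00000028463), chr8:94179082-94180327 for Mt1 (ENSMUSG00000031765), chr11:31357307-31370074 for Stc2 (ENSMUSG00000020303), chr13:6579768-6648777 for Pfkp (ENSMUSG00000021196) and chr11:89300638-89302332 for Nog (ENSMUSG00000048616) in GENCODE M21. The Car9 stretch falls in an exon of that annotation.
Car9: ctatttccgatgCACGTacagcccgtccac
Mt1: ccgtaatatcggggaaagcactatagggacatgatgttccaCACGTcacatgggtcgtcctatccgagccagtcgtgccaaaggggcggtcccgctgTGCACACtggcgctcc
Stc2: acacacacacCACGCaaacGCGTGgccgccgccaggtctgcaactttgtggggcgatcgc
Pfkp: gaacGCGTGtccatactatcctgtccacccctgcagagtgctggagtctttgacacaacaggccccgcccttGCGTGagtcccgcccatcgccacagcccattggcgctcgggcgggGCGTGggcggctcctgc
Bnip3: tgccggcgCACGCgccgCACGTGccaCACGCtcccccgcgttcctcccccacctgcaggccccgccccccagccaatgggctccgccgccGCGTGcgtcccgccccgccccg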

How the data were processed

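Droplet RNA sequencing was done on 4 libraries, 1 per group. The deposited values are raw UMI counts for every gene in every cell, made by the authors with Cell Ranger 6.1.2 per the file headers against mm10 and analysed by them in Seurat 3. Whole numbers and unequal totals were checked in the files. Cells were kept at 200 to 6000 genes and at most 10% mitochondrial UMIs, and doublets were kept. Members held 2000 or more UMIs and 1 or more Car9 UMIs. The members and the 29 gene lists were chosen with earlier results of these data known.

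UMIs were summed over Car9-positive and over Car9-negative cells of a library and scaled to CPM. Log2 ratios took a prior of 0.5 UMIs, and genes with a mean of at least 20 CPM were counted at 1.5-fold. Intervals are 95% Clopper-Pearson for shares, Poisson for CPM and exact conditional for ratios. With 1 library per group no test was made. Other lineages were cells with 3 or more markers. A count of 0 was given a limit of 3 counts. Named genes were the 4 other markers, the targeted genes, the 10 rises and 8 falls with the largest ratio nearest 0 over the 4 libraries (1 fall is not given), genes of the lists, and the 5 largest rises and falls of Car9-positive cells under the label Prx1cre;Glut1f/f;Glut3f/f against the E14.5 control, with the same sign under Prx1cre;Glut1f/f;Glut3f/+. Alternatives were thinning to 2000 UMIs, 2 Car9 UMIs, 1000 or 4000 UMIs, 1000 genes with at most 5% mitochondrial UMIs, leaving out cells over 20000 UMIs or of other lineages, reweighting in 5 classes of depth and 4 of matrix share, ratios to the median gene, means over cells, 5 or 50 CPM, and 2-fold. Gene identifiers were matched to GENCODE M21 for 32158 of 32285. Ratios and intervals were tested on simulated data. Python 3.11.15, numpy 2.4.6, scipy 1.17.1, pandas 2.3.3 and matplotlib 3.10.9 were used.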

Additional observations from a re-analysis of the deposited data

Results flagged for a closer look

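The summed log2 ratio of interzone markers in Car9-positive over Car9-negative cells was 1.03 in the E13.5 control and -1.02 under the label Prx1cre;Glut1f/f;Glut3f/f, opposite directions whose difference was not tested. The summed log2 ratio of macrophage markers was 1.92 in the E13.5 control and -1.41 under the label Prx1cre;Glut1f/f;Glut3f/+, again opposite directions whose difference was not tested.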

How the results depend on the processing

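Of 184 values of the main results under other settings, 117 stayed within their limits, 67 moved and 0 reversed; of 1954 values of single genes and other lists, 1487 stayed, 460 moved and 7 reversed. The order of the 4 libraries in the share of Car9-positive cells was the same in each setting, though not in the share of cells with 3 or more Car9 UMIs, where the E14.5 control was below the E13.5 control. The cause of each move was not tested except where the setting itself removes cells or genes.

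Thinned to 2000 UMIs per cell, the share of Car9-positive cells was 0.875, 1.21, 3.81 and 2.94% in the E13.5 control, the E14.5 control, then under the labels Prx1cre;Glut1f/f;Glut3f/+ and Prx1cre;Glut1f/f;Glut3f/f, the order used for all values here. With 2 Car9 UMIs required it was 0.512, 0.827, 6.0 and 3.66%. With 4000 UMIs required it was 13.4 and 10.6% in the last 2 libraries, and without cells over 20000 UMIs it was 11.1 and 8.57%.

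Genes higher and lower in Car9-positive cells, with 2 Car9 UMIs required, were 592 and 365 in the first library, 298 and 264 in the second, and 403 lower in the last. At a mean of 5 CPM they were 645 and 407, 241 and 423, 271 and 1019, and 142 and 826, and at 50 CPM, where fewer genes are counted, 108 and 53, 37 and 40, 82 and 143, and 106 lower. At 2-fold they were 70 and 48, 3 and 42, 44 and 130, and 21 and 81, by construction fewer. With reweighting they were 33 and 22, 69 and 159, and 42 and 136 in the last 3 libraries, and with means over cells 402 were lower in the last.

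The median of HIF target genes with 2 Car9 UMIs required was 1.04, 0.75, 1.17 and 0.88. It was 0.36 and 0.75 with reweighting in the E14.5 control and the library labelled Glut3f/+, 0.32 at 5 CPM in the former, 1.12 relative to the median gene in the latter, and 1.13 and 0.91 with means over cells in the last 2. Car9-positive cells of the libraries labelled with deletions against those of the E14.5 control, relative to the median gene, gave 218 higher and 223 lower with a HIF median of 0.70, and 308 higher and 402 lower with a HIF median of 0.61. At 2-fold they gave 43 and 84, and 53 and 188.

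Called values whose direction reversed were those of haemoglobins. With cells of 1000 to 6000 genes and at most 5% mitochondrial UMIs, Hbb-bt was 1.65, 0.40 and 0.41 and Hba-a1 0.52, 0.60 and 0.31 outside the E14.5 control, and with reweighting Hba-a1 was 0.26 in the library labelled Glut3f/+. List medians that did not pass 1.5-fold also changed sign with reweighting: in the E14.5 control interzone went from -0.41 to 0.40, chondrocyte from 0.43 to -0.03 and the G2 and M phases from 0.14 to -0.05, and in the library labelled Glut3f/+ chondrocyte went from 0.34 to -0.17 and prehypertrophic or hypertrophic from 0.07 to -0.65. In the library labelled Glut3f/f chondrocyte went from 0.05 to -0.05. The chondrocyte markers other than Sox9 make up the matrix share used for reweighting, so their medians move toward 0 by construction. Other list medians near 0 changed sign too. Reweighting the Car9-positive cells of the E14.5 control was not run, since its lowest matrix class held 19 cells. With 1 library per group the spread between embryos is unknown, and most Car9-positive control cells rest on 1 UMI.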

Other observations

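Cells with more than 6000 genes, which were not kept, held Car9 in 19 of 183, 3 of 89, 35 of 80 and 13 of 67 cases in the E13.5 control, the E14.5 control and the libraries labelled Prx1cre;Glut1f/f;Glut3f/+ and Prx1cre;Glut1f/f;Glut3f/f. Kept cells under 2000 UMIs held Car9 in 5 of 1123, 4 of 598, 17 of 782 and 21 of 857 cases.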
